A study of Mus musculus with 8 samples.

Results

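The older LINE subfamilies were taken from a table of 18694 features, 17597 genes and 1097 transposable element subfamilies, measured by total RNA sequencing of mouse embryonic stem cells with and without the RNA methyltransferase METTL3. They are the subfamilies of the LINE class whose name does not begin with L1Md, the prefix of the young mouse L1 elements, and whose mean count was at least 10. Of 157 LINE subfamilies, 6 were L1Md and 151 were not, and 137 of these 151 reached the minimum. The rule used the names and the level but not the comparison between groups, though it was set with earlier results of these data known. Not every member is old: L1_Mus and L1_Mm are named for the mouse lineage, so the set is better read as all LINE subfamilies outside L1Md.

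LINEs are retrotransposons that copy themselves through an RNA intermediate with their own reverse transcriptase. Most copies in a mammalian genome are truncated at the 5′ end and have long lost the ability to move. Fragments of old LINEs lie mostly between genes and in introns, so their RNA can be read as part of a longer host transcript as well as from a LINE promoter. Among L1 elements, the L1M subfamilies are shared by placental mammals and run from the younger L1MA to the older L1ME, Lx elements arose in the rodent lineage, and HAL1 elements carry only the first of both L1 reading frames. L2, CR1 (with L3) and RTE are separate LINE families, and L2 and L3 stopped moving long before mice and humans parted. METTL3 provides the catalytic activity that places the mark m6A (N6-methyladenosine) on RNA, and m6A on L1 transcripts is known to affect their fate in the nucleus.

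The cells were mouse embryonic stem cells of a Cast x 129S hybrid background, grown on mitomycin-inactivated fibroblast feeders. METTL3 carried an FKBP12F36V degron tag at its C terminus in clones C3 and H5, and each of these lines is a single clone. A TetOn promoter stood in place of the endogenous Xist promoter on 1 allele, and no doxycycline was given to any library, so Xist was not induced. One group received dTAG-13, which directs the tagged protein to destruction, for 26 h, and the other received none. Each group held 4 libraries, 2 replicates of each of 2 clones. The comparison addresses which RNAs change soon after METTL3 is removed. The labels name total RNA, as do the study's methods, whereas their extraction text is about chromatin RNA. The values are read here as total RNA.

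The table holds the authors' comparison of both groups and no value for a single library, so values per library are not analysed here. For each feature it gives the mean count (read counts scaled by size factors and averaged over all 8 libraries), a log2 fold change (here the log2 change) with its standard error (SE), and a p-value with its Benjamini-Hochberg adjusted value over all features. Which group is the numerator is not stated in it. A negative log2 fold change was read as lower with dTAG-13, and this reading is uncertain, since an inverted contrast would turn every sign. For members the results turn on, group levels were rebuilt from the mean count and the fold change, on the assumption that the mean count is the average of both group means. These levels are approximate. A mean count sums all copies of a subfamily and carries no length, so levels of different subfamilies are not compared per length. A feature passed the threshold at an adjusted p under 0.05. The p-values measure the spread between these libraries, which come from only 2 clones.

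The labelled cell type was checked on its markers. All 7 stem cell markers had mean counts from 3444 to 11934, with Pou5f1 the highest. Of these 7, Dppa5a (log2 change -0.40, adjusted p = 0.00937) and Tdgf1 (-0.35, adjusted p = 0.00728) were lower with dTAG-13, also after re-centring on genes (adjusted p = 0.0270 and 0.0263), and the other markers of the list did not pass. Their part in the LINE values was not tested. Of 10 fibroblast markers, which would come from feeder cells, 4 had a mean count under 10, among them Dcn at 7.50, Lum at 1.45 and Postn at 0.768. Fn1, Sparc and Vim, which are not specific to fibroblasts, were the highest of that list, and Vim, which was lower, was the only marker of the list past the threshold (adjusted p = 0.00380). Mettl3 RNA averaged 684 counts, with a log2 change of -0.09 (SE 0.31, adjusted p = 0.886), and because the degron acts on protein this value does not check the labels.

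Together the 137 older LINE subfamilies averaged 152096 counts. This was 62.2% of the LINE total of 244348, with the other 37.7% in the 6 L1Md subfamilies, and 8.85% of the transposable element total. It was 0.934% of all counted reads. The counts were uneven among members, and the 10 most abundant held 44.1% of the members' total. Most of it fell under a few prefixes, L1M with 30.7%, Lx with 29.1% and L1_ with 25.6%. L2 held 8.56%, L1VL 2.70%, CR1 1.97% and HAL1 1.26%, while L1P, RTE-X and RTE-BovB together were far below any of these.

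Nearly every older LINE subfamily had a lower estimate with dTAG-13, by a similar and small amount. Of 137 members, 135 had a log2 change below 0 and 2 above 0. The median was -0.40, with quartiles at -0.47 and -0.31. For comparison, 53.5% of all features at or above a mean count of 10 lay below 0, the median of 13590 genes at that minimum was -0.01, and 90.5% of 759 other transposable element subfamilies lay below 0 with a median of -0.35. The rebuilt counts of all members added up to 170055 without and 134137 with dTAG-13, a change of -21.1%. In bulk RNA, fewer cells with these transcripts and less of them per cell cannot be told apart. Whether the lower values came from LINE promoters or from host transcripts that run through LINE copies was not tested.

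Few single members passed the test. In the authors' DESeq2 fit, 3 of 137 members (2.19%) were lower at an adjusted p under 0.05, against 9.09% of all features, and 0 were higher, against 10.1% of all features. Among the other transposable element subfamilies at or above a mean count of 10, 6.72% were lower by the same rule. At an unadjusted p under 0.05, 20 members (14.6%) were lower and 0 higher, while 14.6% of all features and 16.2% of the other transposable elements were lower. The shares of all features here carry no minimum mean count. At the members' minimum of 10, 1689 of 14486 features were lower at the adjusted threshold and 2689 at an unadjusted p under 0.05. The share of members lower lay below that of these features at both thresholds. The common direction of the members is a description of their estimates: they were measured in the same 8 libraries and are not independent of each other.

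**Figure D1:**
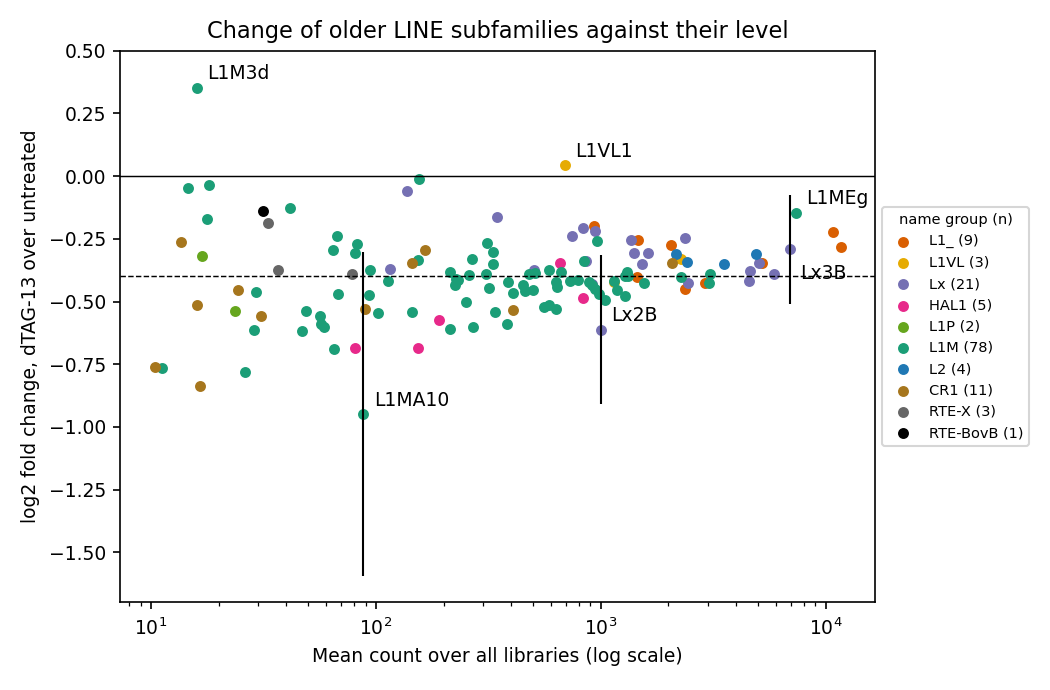
Log2 fold change (dTAG-13 over untreated) of the 137 older LINE subfamilies against their mean count on a log scale, with points coloured by name group. The dashed line marks the median of -0.40, and vertical bars are 95% intervals of the 3 members past the threshold, Lx2B, Lx3B and L1MA10. Nearly all points lie below 0 at every level, and the scatter is widest under a mean count of 100.

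The members past the threshold were 2 Lx subfamilies and 1 L1MA subfamily. Lx2B, a rodent L1 subfamily, averaged 1005 counts, with rebuilt levels of 1215 without and 794 with dTAG-13. Its log2 change was -0.61 (SE 0.15, 95% interval -0.91 to -0.32, adjusted p = 0.000768), a change of -34.6%. This was the only one of the 3 calls that held when p-values were adjusted over the transposable elements alone. Lx3B was the most abundant Lx subfamily, with 6914 counts and rebuilt levels of 7613 and 6216. It fell less than Lx2B, with a log2 change of -0.29 (SE 0.11, 95% interval -0.51 to -0.07, adjusted p = 0.0463). Its estimate was closer to 0 than the members' median, with one of the smallest errors of the set. L1MA10, of the youngest L1M group by name, was the lowest of all members. Its mean count was 88.0, its rebuilt levels 116 and 60.1, and its log2 change -0.95 (SE 0.33, 95% interval -1.60 to -0.30, adjusted p = 0.0257). After the median of genes at or above a mean count of 100, -0.05, was subtracted from every feature, Lx3B had an adjusted p of 0.119 and was not called. With adjustment over transposable elements alone, Lx3B had an adjusted p of 0.171 and L1MA10 of 0.106.

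The called subfamilies were set beside their nearest relatives by name, in pairs chosen after the values were seen. Lx2B minus Lx2B2 was -0.26 on the log2 scale, with a 95% interval from -0.69 to 0.16. L1MA10 minus L1MA9 was -0.48 (-1.34 to 0.39), and Lx3B minus Lx3A was -0.05 (-0.43 to 0.32). All 3 intervals span 0. The intervals assume independent errors, while both members of a pair come from the same libraries. They therefore cannot decide whether a called member differs from its neighbour.

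The rodent L1 subfamilies by prefix (L1_, L1VL and Lx), 33 in all, had a median closer to 0 than the L1M members and a smaller median SE. All 21 Lx members lay below 0, with a median of -0.34, a range from -0.61 to -0.06 and 6 at an unadjusted p under 0.05. Lx2B was the only Lx member below -0.5. The most abundant were Lx3B, Lx9 and Lx8. Lx9, with 5906 counts, had rebuilt levels of 6703 and 5108 and a log2 change of -0.39 (SE 0.21, adjusted p = 0.208). Lx8, with 5068, had -0.35 (SE 0.22, adjusted p = 0.304). Both had larger estimates than Lx3B with wider errors, and did not pass. Lx5 (mean count 2367) showed the reverse: a small estimate of -0.25 with an SE of 0.11 and an adjusted p of 0.115. Lx5b, with 915 counts, came near the threshold at -0.43 (adjusted p = 0.0613). At the other end, Lx2A1 averaged 137 counts, with rebuilt levels of 140 and 134, a log2 change of -0.06 (SE 0.22, adjusted p = 0.894). The Lx counts added up to 49480 without and 38926 with dTAG-13, a change of -21.3%.

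The 9 L1_ members, of which several are named for the mouse or murine lineage, held the most abundant subfamilies of the set. L1_Mus3 averaged 11690 counts, with rebuilt levels of 12828 and 10553 and a log2 change of -0.28 (SE 0.19, adjusted p = 0.338). L1_Mus1, with 10796 counts, had -0.22 (SE 0.13, adjusted p = 0.272). L1_Mus2, with 5194, had -0.35 (SE 0.17, adjusted p = 0.155). None of the 9 passed the threshold (2 had an unadjusted p under 0.05), and all lay below 0, between -0.45 for L1_Mm and -0.20 for L1_Mur1. Their median of -0.28 was the least negative of the name groups with more than 1 member. L1_Mm, which is named for Mus musculus, had the lowest estimate of its group (mean count 2381, adjusted p = 0.127). The summed counts went from 42854 to 34903, a change of -18.6%.

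The L1VL group had only 3 members, and its values spread on both sides of 0. L1VL2, with 2270 counts, had rebuilt levels of 2529 and 2011 and a log2 change of -0.33 (SE 0.21, adjusted p = 0.313). L1VL4, with 1145, had -0.42 (SE 0.25). L1VL1 was the exception, with 694 counts, rebuilt levels of 683 and 704 and a log2 change of 0.04 (SE 0.19, adjusted p = 0.911). Of the 100 members at or above a mean count of 100, it was the only one above 0. L1VL1 minus L1VL2 was 0.38, with a 95% interval from -0.19 to 0.94 if their errors were independent. Both come from the same libraries, so this interval cannot decide whether they differ.

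**Figure D2:**
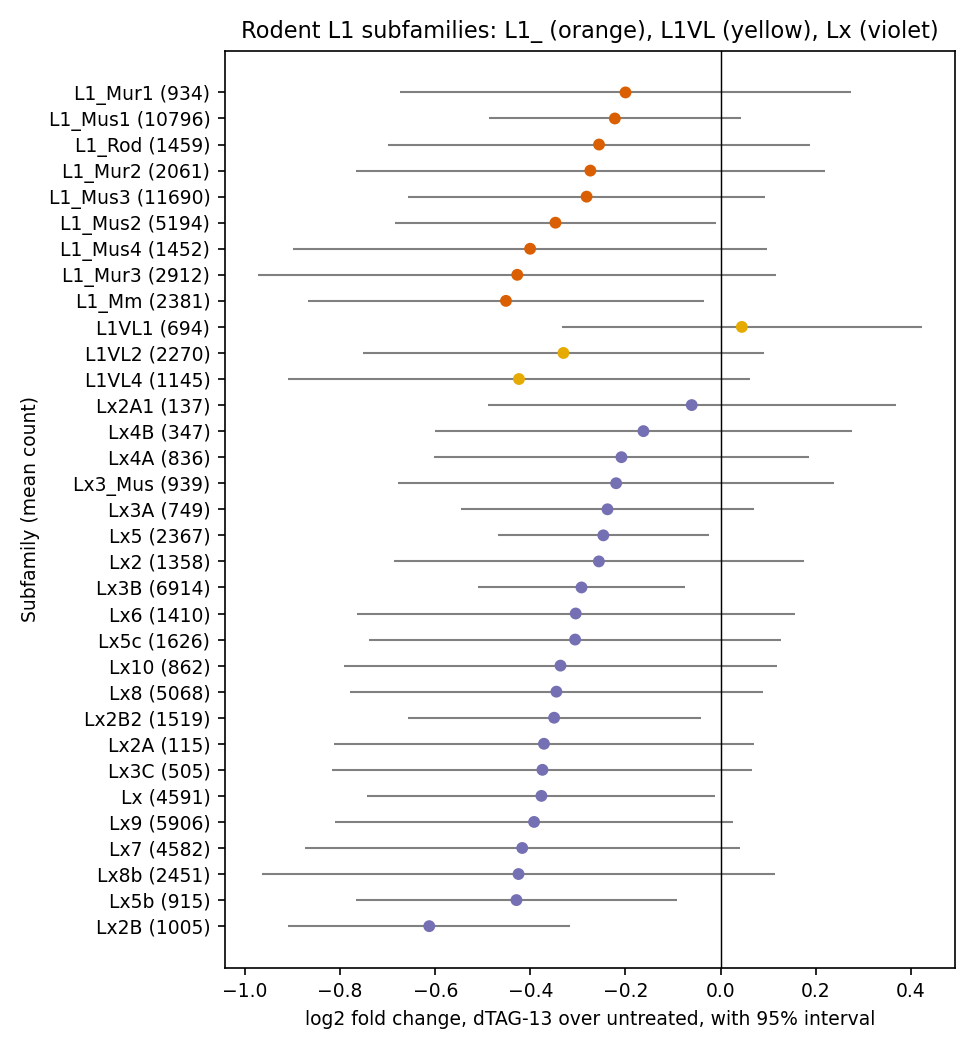
Log2 fold change (dTAG-13 over untreated) with 95% interval of the 33 rodent L1 subfamilies, sorted within L1_ (orange), L1VL (yellow) and Lx (violet), with the mean count in brackets. All points except L1VL1 lie left of 0, and most intervals reach across it, while that of Lx2B ends at -0.32.

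The 78 L1M subfamilies, the mammalian L1 fossils, lay mostly close to a common value. All but 1 lay below 0, with a median of -0.42 and 8 at an unadjusted p under 0.05. Of 55 L1M members at or above a mean count of 100, 41 had a log2 change between -0.5 and -0.3, as did 67 of all 100 members at that level. The subgroups, which are ordered by age in their names, had these medians: -0.45 for 9 L1MA, -0.43 for 7 L1MB, -0.42 for 11 L1MC, -0.42 for 6 L1MD, -0.43 for 26 L1ME and -0.40 for 19 numbered L1M members. These medians lay from -0.45 to -0.40, and whether they differ was not tested. L1MD here is the ancient subgroup and not the young L1Md.

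L1M5 and L1M4, the most abundant L1M subfamilies after L1MEg, had estimates near that median and wide errors. L1M5 averaged 3063 counts, with rebuilt levels of 3476 and 2650 and a log2 change of -0.39 (SE 0.28, adjusted p = 0.379). L1M4, with 3039, had -0.43 (SE 0.28, adjusted p = 0.311). The largest decreases in estimate among members of at least 100 counts included L1MEj, with 214 counts, rebuilt levels of 258 and 169 and a log2 change of -0.61 (SE 0.24). Its adjusted p of 0.0528 missed the threshold narrowly. L1M3e, at -0.54 (mean count 144, adjusted p = 0.0865), was the next L1M member in order of p. With a threshold of 0.1 in place of 0.05, L1MEj, L1M3e and Lx5b joined the 3 called members.

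L1MEg stood apart from the other L1M members in both level and precision. Its mean count of 7370 was 6.42 times that of L1ME1, the next of the L1ME subgroup, and made up 51.4% of the L1ME counts. Its rebuilt levels were 7741 and 6999, and its log2 change was -0.15 (SE 0.079, 95% interval -0.30 to 0.01, adjusted p = 0.209). The largest decrease that this interval allows, -0.30, was smaller than the members' median of -0.40. With L1MEg the summed L1ME counts changed by -17.2%, and without it by -24.6%, close to the -24.5% of L1MB and the -25.9% of L1MC. L1ME3D was another L1ME member with a small estimate, at -0.01 (mean count 156, rebuilt levels 157 and 155, SE 0.17, adjusted p = 0.970). L1ME3D minus L1ME3G was 0.40, with a 95% interval from -0.31 to 1.10. L1M3d was the only L1M member above 0, and its log2 change of 0.35 had an SE of 0.40 on rebuilt levels of 14.0 and 17.9.

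HAL1 elements had the lowest median of the L1 groups, on 5 members. HAL1 itself averaged 837 counts, with rebuilt levels of 977 and 697 and a log2 change of -0.49 (SE 0.26, adjusted p = 0.204). MusHAL1, the mouse form, averaged 658 counts and had a change of -0.35 (adjusted p = 0.330), and HAL1M8 had 191 and -0.57 (adjusted p = 0.238). HAL1ME was the lowest member of all those at or above a mean count of 100, at -0.69 (mean count 154, rebuilt levels 190 and 118, SE 0.32, adjusted p = 0.122). None of the 5 passed the threshold, and 2 had an unadjusted p under 0.05. The summed HAL1 counts went from 2231 to 1609, a change of -27.9%, with the median member at -0.57. The 2 L1P members, of a prefix named for primates, were at the limit of what was measured, L1PB4 with 23.6 counts (log2 change -0.54, SE 0.49) and L1P5 with 16.8 (-0.32, SE 0.45).

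The non-L1 families showed the same direction in all 19 members. The 4 L2 subfamilies agreed most closely, between -0.35 and -0.31. L2a, the most abundant with 4894 counts, had rebuilt levels of 5419 and 4369 and a log2 change of -0.31 (SE 0.26, adjusted p = 0.463). L2 (mean count 3531) had -0.35, L2c (2430) had -0.34 and L2b (2160) had -0.31. The SEs of L2 members were from 0.24 to 0.26, much wider than the spread between them, and none reached an unadjusted p under 0.05. Their counts together went from 14484 to 11546, a change of -20.3%.

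Of 11 CR1 members, all lay below 0, with a median of -0.52 that came mainly from rare subfamilies. Among the 4 at or above a mean count of 100 the median was -0.35. L3, the most abundant CR1 subfamily, averaged 2083 counts, with rebuilt levels of 2333 and 1833 and a log2 change of -0.35 (SE 0.23, adjusted p = 0.312). L3b, with 406, had -0.53 (SE 0.25, adjusted p = 0.118), and X7B_LINE, with 165, had -0.29 (SE 0.14, adjusted p = 0.147). These 2 were the only CR1 members at an unadjusted p under 0.05. Among RTE elements, L4_A_Mam (mean count 78.4) had a log2 change of -0.39, L4_B_Mam (36.7) of -0.38 and L4_C_Mam (33.1) of -0.19, and the single RTE-BovB member, X3_LINE (31.5), of -0.14. The SEs of these 4 were from 0.28 to 0.40, so no change of this size was detectable at their depth.

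**Figure D3:**
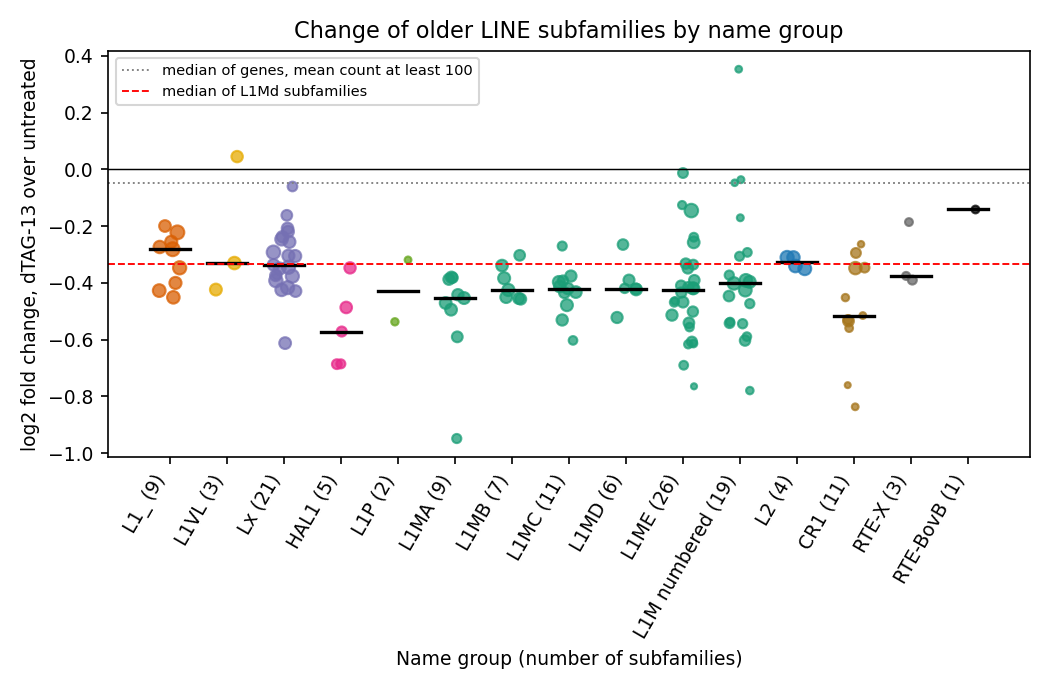
Log2 fold change (dTAG-13 over untreated) of each older LINE subfamily by name group, with the number of subfamilies in brackets, larger points for higher mean counts and a black bar at each group's median. The group medians lie between -0.57 (HAL1) and -0.14 (RTE-BovB, 1 member), all below the dotted line at -0.05 for genes at or above a mean count of 100, and around the dashed line at -0.33 for the 6 L1Md subfamilies.

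The name groups were compared by description, since they share libraries and no test over members was made. The 33 rodent L1 members had a median of -0.33, the 85 mammalian L1 members (L1M, L1P and HAL1) of -0.43 and the 19 non-L1 members of -0.35. The summed counts changed by -20.0%, -23.2% and -20.8% in the same order. Whether these medians differ was not tested. The mammalian set includes MusHAL1, the mouse form, since the grouping went by name. The 6 young L1Md subfamilies had a median of -0.33 with 1 past the threshold, and their summed counts changed by -22.8%. With a minimum mean count of 100, the medians of the other classes were -0.34 for LTR elements, -0.34 for SINEs and -0.41 for DNA transposons, beside -0.39 for the older LINE members at that level. Their summed counts changed by -21.2% for LTR elements, -9.90% for SINEs and -23.1% for DNA transposons, beside -21.0% for the older LINE members and -7.18% for genes. The SINE sum thus changed less than the median SINE subfamily, and less than the sum of the older LINE members. Estimates below 0 were the majority in each of these transposable element classes.

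After re-centring on genes, a shift of -0.05, the median of the members was -0.35, and 5 members lay above 0 in place of 2. L1M3b, L1M3c and L1ME3D were the ones that changed sign, from -0.05, -0.04 and -0.01. Compared with the 200 genes nearest in mean count, 134 of 137 members had a lower log2 change than the median of those genes.

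The members were measured with less precision than genes of the same level. The SE was above the median of the 200 genes nearest in mean count for 130 of 137 members and above their 90th percentile for 105. The median ratio to the genes' SE was 1.81. From a mean count of 1000 upwards, the median SE was 0.24 for 39 members and 0.12 for 3632 genes. Expressed as the coefficient of variation between libraries of a group that such an error implies, this was 22.9% for members and 11.2% for genes. Whether the wider errors follow the clone or the replicate was not tested, as values per library are not analysed here.

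Precision divided the members into a broad and a narrow set. Among members of at least 100 counts, 52 of 100 had an SE between 0.25 and 0.32, over a wide range of levels. The rodent L1 members were tighter: 29 of 33 had an SE under 0.25, but only 7 of 55 L1M members at that level did. Only 8 members had an SE under 0.16, among them L1MEg, Lx3B, Lx5, X7B_LINE and Lx2B. L1MEg lay at the 10th percentile of genes of like level, and its implied coefficient of variation was 7.70%. L1MEf and L1MA8 were the least precise for their level, with SEs of 0.44 at a mean count of 592 and 0.42 at 636, each over 3 times that of the genes nearest in level.

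**Figure D4:**
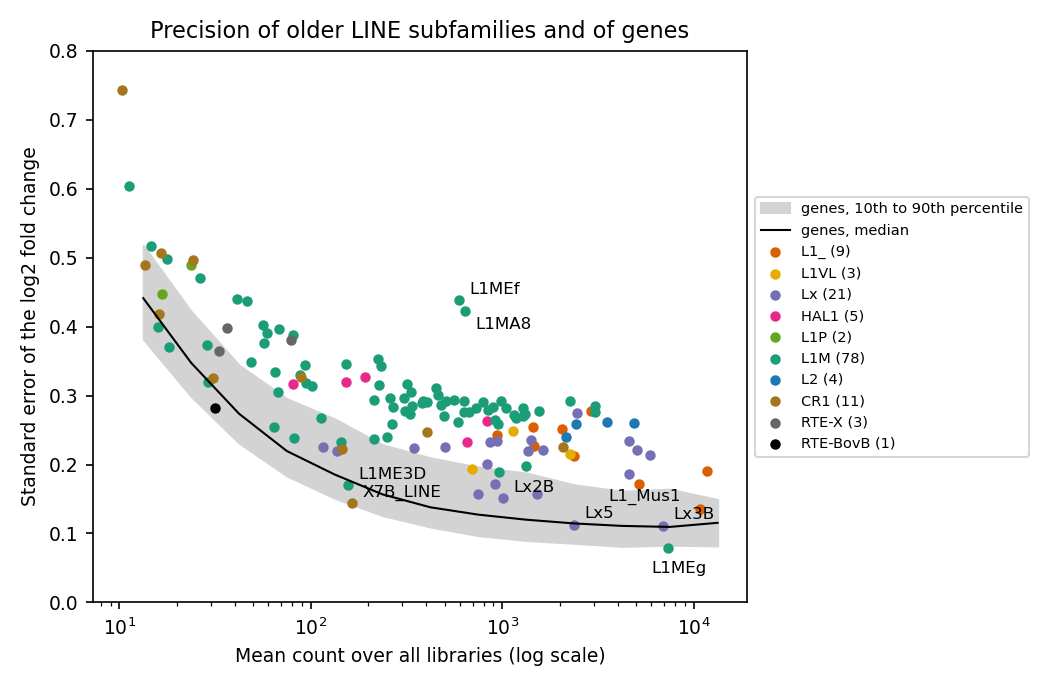
Standard error of the log2 change against mean count (log scale) for the 137 older LINE subfamilies, coloured by name group, with the median of genes as a line and the range from their 10th to 90th percentile in grey. Most L1M members lie near 0.28 above the grey range, while Lx and L1_ members lie lower. Lx3B and Lx5 fall within the grey range, and L1MEg lies just below it.

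These errors limited what could be called. The smallest Wald statistic past the threshold was 2.59 in size over the whole table, so a member with the median SE of 0.28 needed a log2 change of 0.72, or 1.65-fold. The change needed was larger than the members' median decrease in 131 of 137 members. In only 6 members would a decrease of the median size have passed. A decrease of about -0.40 was therefore not detectable in most single subfamilies in the authors' fit. The study's methods state no term for clone in that fit.

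The minimum mean count of 10 was the only limit in the choice of members. X6A_LINE was just above it, with 10.4 counts, a log2 change of -0.76 and an SE of 0.74. X2_LINE was just below it, with 9.61, -0.39 and 0.59. The 14 LINE subfamilies under the minimum had a summed mean count of 74.8, 0.0306% of the LINE total, and none passed the threshold or reached an unadjusted p under 0.05. Between mean counts of 10 and 100 there were 37 members, 36 of them below 0, with a median of -0.47 and a median SE of 0.39. L1MA10 was the only one of these past the threshold.

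A list of 24 genes known to control L1 elements or their RNA was read from the same table, and all were found. Of these, 3 were higher, 6 were lower and 15 did not pass, with a median of -0.11. Over all features, 10.1% were higher and 9.09% lower by the same rule. The listed genes had mean counts from 480 to 18853, well above many features. Of 9899 genes at or above a mean count of 100, 1320 were higher and 1483 lower. Of 3632 genes at or above 1000, 271 were higher and 753 lower. Fam208a, which encodes the HUSH subunit TASOR, fell by 0.55 on the log2 scale (adjusted p = 0.00486), and Mphosph8, another subunit of this complex that silences L1 copies, fell by 0.42 (adjusted p = 0.000206). Pphln1, its remaining core subunit, had -0.11 (adjusted p = 0.709), and the HUSH effector Morc2a had 0.04 (adjusted p = 0.851). Trim28, the corepressor of KRAB zinc finger proteins, fell by 0.31 (adjusted p = 0.000672), while Setdb1, the H3K9 methyltransferase it recruits, had -0.06 (adjusted p = 0.750). Dnmt1, the maintenance DNA methyltransferase, fell by 0.28 (adjusted p = 0.00213). Atf7ip, a partner of SETDB1, had the lowest estimate of the list at -0.59 and missed the threshold (adjusted p = 0.0530).

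On the side of RNA, Ythdc1, the nuclear m6A reader, rose most of the list, with 3543 counts and a log2 change of 1.04 (SE 0.14, adjusted p = 1.44e-10). Safb2, a nuclear RNA-binding protein, rose by 0.34 (adjusted p = 0.0105), and its relative Safb had -0.10 (adjusted p = 0.554). Skiv2l2, which encodes the exosome helicase MTREX, fell by 0.35 (adjusted p = 0.000534). Of the other subunits of the nuclear exosome targeting complex, Rbm7 rose by 0.28 (adjusted p = 0.0356) and Zcchc8 had 0.08 (adjusted p = 0.792). Samhd1, a nucleotide hydrolase that restricts L1, fell by 0.51 (adjusted p = 0.0321), a call not kept after re-centring (adjusted p = 0.0609). Fto, an m6A demethylase, had 0.20 (adjusted p = 0.288) and Mov10, an RNA helicase that restricts L1, had -0.07 (adjusted p = 0.695). Whether any of these genes bears on the LINE values was not tested.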

How the data were processed

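Total RNA from 4 dTAG-13 and 4 untreated libraries was sequenced by the authors. Per the study's methods, the authors removed ribosomal reads with bowtie2, aligned to N-masked mm10 with STAR, kept unique alignments, removed duplicates with Picard and ran TEtranscripts with default parameters, which calls the Wald test of DESeq2. Unique alignment undercounts young subfamilies with near-identical copies. Whether counting used strand is uncertain. The deposited signal column is the mean over libraries of counts divided by size factors. The deposited log2 fold changes and standard errors, the score (Wald statistic) and the p-values come from the authors' fit. In all 18694 features the statistic and the adjusted p followed from the other columns to 6 digits, and the p-value at a slightly looser tolerance.

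No model was refitted. Intervals (95%) are the estimate plus or minus normal quantiles times the standard error. Rebuilt levels, name-group summaries, precision against the 200 nearest genes, re-centring and adjustment over transposable elements were computed with Python 3.11.15, pandas 2.3.3, numpy 2.4.6 and scipy 1.17.1, and figures with matplotlib 3.10.9. The step was tested on simulated data.

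Subfamilies named were those past the threshold, the 3 most abundant of each name group, the 3 largest changes each way at a mean count of at least 100, those beside the minimum, and a fixed L1 control list with Mettl3. Others, such as L1MEg's neighbours, L1_Mm, Lx5, Lx5b, L1M3b, L1M3c and the imprecise L1MEf and L1MA8, were named after their values were seen. Members and lists were chosen with earlier results of these data known.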

Additional observations from a re-analysis of the deposited data

How the results depend on the processing

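Of 137 older LINE subfamilies, 3 passed the threshold. With p-values adjusted over transposable elements only, the count was 1 (Lx2B), and at an adjusted p under 0.1 it was 6. It was 2 with a minimum mean count of 100, 2 after re-centring on genes, 2 with a change of at least 1.5-fold and 3 with no minimum. The median log2 fold change of the members lay between -0.40 and -0.35 under every alternative that kept a median. Their mean weighted by mean count and the log2 ratio of their summed counts were both -0.34. All 37 recomputed values of name groups, which were medians or means weighted by mean count, were below 0. Many of them are not separate checks, since merged groups share a median and some groups have no member under the stricter minimum of 100. Lx2B kept its call after re-centring (adjusted p = 0.00230) and with adjustment over transposable elements (0.00327), and L1MA10 after re-centring (0.0376). No paired analysis was possible because the table holds no value per library, and for the same reason leaving out a library or a clone, another scaling from counts and a refit by another tool were not run. The 37 members under a mean count of 100 were less precise, with a median standard error of 0.39 against 0.26 for the other members. How much of this came from depth was not tested. The sign of every change rests on the reading of the contrast.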
